A study of Mus musculus with 6 samples.

Results

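The open chromatin around *Alx1*, *Alx4*, *Pax9* and *Pax1* was compared between wild-type (WT) and *Hox13-/-* distal forelimb buds. A peak of the ATAC-seq table was assigned to 1 of these genes when its midpoint lay inside the gene or within 200 kb of the gene's transcription start site, and this gave 63 of the 61954 peaks in the table. *Alx4* had 30 of them, *Pax9* 18, *Pax1* 11 and *Alx1* 4. In *Hox13-/-* buds 5 of the 63 peaks were less accessible and 6 were more accessible, while 8.31% and 11.4% of all peaks in the table were. None of the 5 promoter peaks of the 4 genes passed the test. The changes lay in distal peaks of *Alx4*, *Pax9* and *Pax1*, with 1 exception at the promoter of a neighbouring gene, *Cd82*, and they went in both directions at each of these 3 genes. At *Alx4* each lower call depended on single libraries, as described below.

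The 4 libraries were made from distal forelimb buds of mouse embryos at E11.5, 2 WT and 2 *Hox13-/-*, on a mixed C57Bl/6 and 129 background. The mutants carried null alleles of both *Hoxa13* (*Hoxa13Str*) and *Hoxd13* (*Hoxd13lacZ*). Each library used 50000 cells, and the buds of both sides of 1 embryo were pooled for it. The study's reporting notes call the ATAC-seq duplicates biological replicates. The labels do not say whether they came from separate embryos. The p-values rest on a spread between these libraries pooled over peaks of similar accessibility, not on each peak's own spread. ATAC-seq marks accessible DNA by transposase insertion, and the 2 proximal limb bud samples of the series were not analysed here.

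*Alx1* and *Alx4* encode paired-type homeodomain transcription factors related to aristaless. *Pax9* and *Pax1* are closely related and encode paired-box transcription factors. In the limb bud *Alx4* and *Pax9* are known as genes of the anterior mesenchyme, the thumb side, where they stand opposite the posterior domain of *Shh* and *Hand2*. Mice that lack *Alx4* or *Pax9* form extra anterior digits. *Alx1* is best known in craniofacial mesenchyme, and *Pax1* in the sclerotome and the shoulder girdle. HOXA13 and HOXD13 are homeodomain factors of the most distal limb and are needed for digit formation. The buds were not divided into anterior and posterior parts, so the libraries carry no position along that axis, and in such bulk samples fewer cells with a peak and less opening per cell cannot be told apart.

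In the sequences that follow, each peak is named by its gene and by the distance of its midpoint from that gene's start site, positive in the direction of transcription. They are shown because they carried the largest changes at each gene, and because 1 of them, *Alx4* +137.6 kb, was the changed peak with the most matches to a HOX13 motif, a choice made after the matches were counted. Each run is 300 bases around the peak's midpoint, on the plus strand of GRCm38 (mm10), in lower case with motif matches in capitals. Both strands were searched. The letters for HOX13 were CAATAAA and its variants with other first bases, CCATAAA and also TCGTAAA. Those for GLI were GACCACCCA, and the homeodomain core was TAATTA, which overlaps none of the others. The first group holds the peaks that were less accessible in *Hox13-/-*.
Alx4 +90.5 kb (chr2:93732762-93733061): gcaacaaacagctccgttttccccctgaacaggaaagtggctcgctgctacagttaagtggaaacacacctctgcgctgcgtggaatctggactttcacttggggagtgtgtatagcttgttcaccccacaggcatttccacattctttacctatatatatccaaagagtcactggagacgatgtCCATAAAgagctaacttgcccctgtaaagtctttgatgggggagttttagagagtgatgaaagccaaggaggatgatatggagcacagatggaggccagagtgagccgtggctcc
Alx4 +137.6 kb (chr2:93779864-93780163): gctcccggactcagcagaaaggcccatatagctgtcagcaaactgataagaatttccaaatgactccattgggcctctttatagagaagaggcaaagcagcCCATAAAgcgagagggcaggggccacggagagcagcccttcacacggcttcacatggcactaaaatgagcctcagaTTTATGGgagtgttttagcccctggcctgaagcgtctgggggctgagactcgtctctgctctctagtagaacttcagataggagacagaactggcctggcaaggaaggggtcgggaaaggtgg
Pax9 +185.1 kb (chr12:56876688-56876987): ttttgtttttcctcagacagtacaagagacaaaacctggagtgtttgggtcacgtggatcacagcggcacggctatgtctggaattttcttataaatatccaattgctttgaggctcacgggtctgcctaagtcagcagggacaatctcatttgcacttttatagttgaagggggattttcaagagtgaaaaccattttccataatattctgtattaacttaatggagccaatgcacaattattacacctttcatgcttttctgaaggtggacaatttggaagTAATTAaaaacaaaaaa
Pax1 +196.3 kb (chr2:147558048-147558347): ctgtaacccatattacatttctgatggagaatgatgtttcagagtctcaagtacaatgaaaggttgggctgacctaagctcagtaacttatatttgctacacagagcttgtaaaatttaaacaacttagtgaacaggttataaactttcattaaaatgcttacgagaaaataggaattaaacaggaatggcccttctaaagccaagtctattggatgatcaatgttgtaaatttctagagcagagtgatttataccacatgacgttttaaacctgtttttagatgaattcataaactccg

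The second group holds the peaks that were more accessible in *Hox13-/-*, and none of them has a match in its window.
Alx4 +130.4 kb (chr2:93772635-93772934): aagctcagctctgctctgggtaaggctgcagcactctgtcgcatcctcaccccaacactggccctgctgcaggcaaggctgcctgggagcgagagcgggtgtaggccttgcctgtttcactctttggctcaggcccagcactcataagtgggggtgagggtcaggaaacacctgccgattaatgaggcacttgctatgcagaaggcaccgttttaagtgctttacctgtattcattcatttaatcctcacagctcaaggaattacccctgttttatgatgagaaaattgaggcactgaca
Pax9 +131.7 kb (chr12:56823315-56823614): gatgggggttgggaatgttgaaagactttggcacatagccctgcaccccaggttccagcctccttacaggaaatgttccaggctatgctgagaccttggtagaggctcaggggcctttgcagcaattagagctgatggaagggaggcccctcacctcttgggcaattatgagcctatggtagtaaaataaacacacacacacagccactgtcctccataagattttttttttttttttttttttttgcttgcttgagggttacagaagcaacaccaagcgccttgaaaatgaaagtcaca
Pax1 -63.2 kb (chr2:147298556-147298855): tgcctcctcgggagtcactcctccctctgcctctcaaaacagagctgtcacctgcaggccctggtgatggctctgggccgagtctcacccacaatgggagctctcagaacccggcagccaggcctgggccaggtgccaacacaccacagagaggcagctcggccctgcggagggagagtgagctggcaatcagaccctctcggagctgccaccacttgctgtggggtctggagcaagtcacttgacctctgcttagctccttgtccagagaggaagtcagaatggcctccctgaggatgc

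Accessibility is given as the deposited rLog value, a log2-scale normalised read count shrunk towards the peak's mean, and a difference is *Hox13-/-* minus WT on that scale. Peaks were called lower or higher when limma's p, adjusted over all 61954 peaks by the Benjamini-Hochberg method, was under 0.05. By that rule 19.7% of all peaks were called, and 7.94% of the 63 peaks were lower and 9.52% higher. At an unadjusted p under 0.05, limma gave 9 lower (14.3%) and 11 higher (17.5%), next to 14.9% and 16.9% of all peaks. None of the 63 was called with a change beyond 2-fold, a class that held 0.537% of all peaks. The median difference was 0.05 over the 63 peaks and −0.01 over all peaks, and the single differences ran from −0.78 to 0.87. The shares of called peaks at the 4 genes thus lay close to those of the table in both directions.

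**Figure D1:**
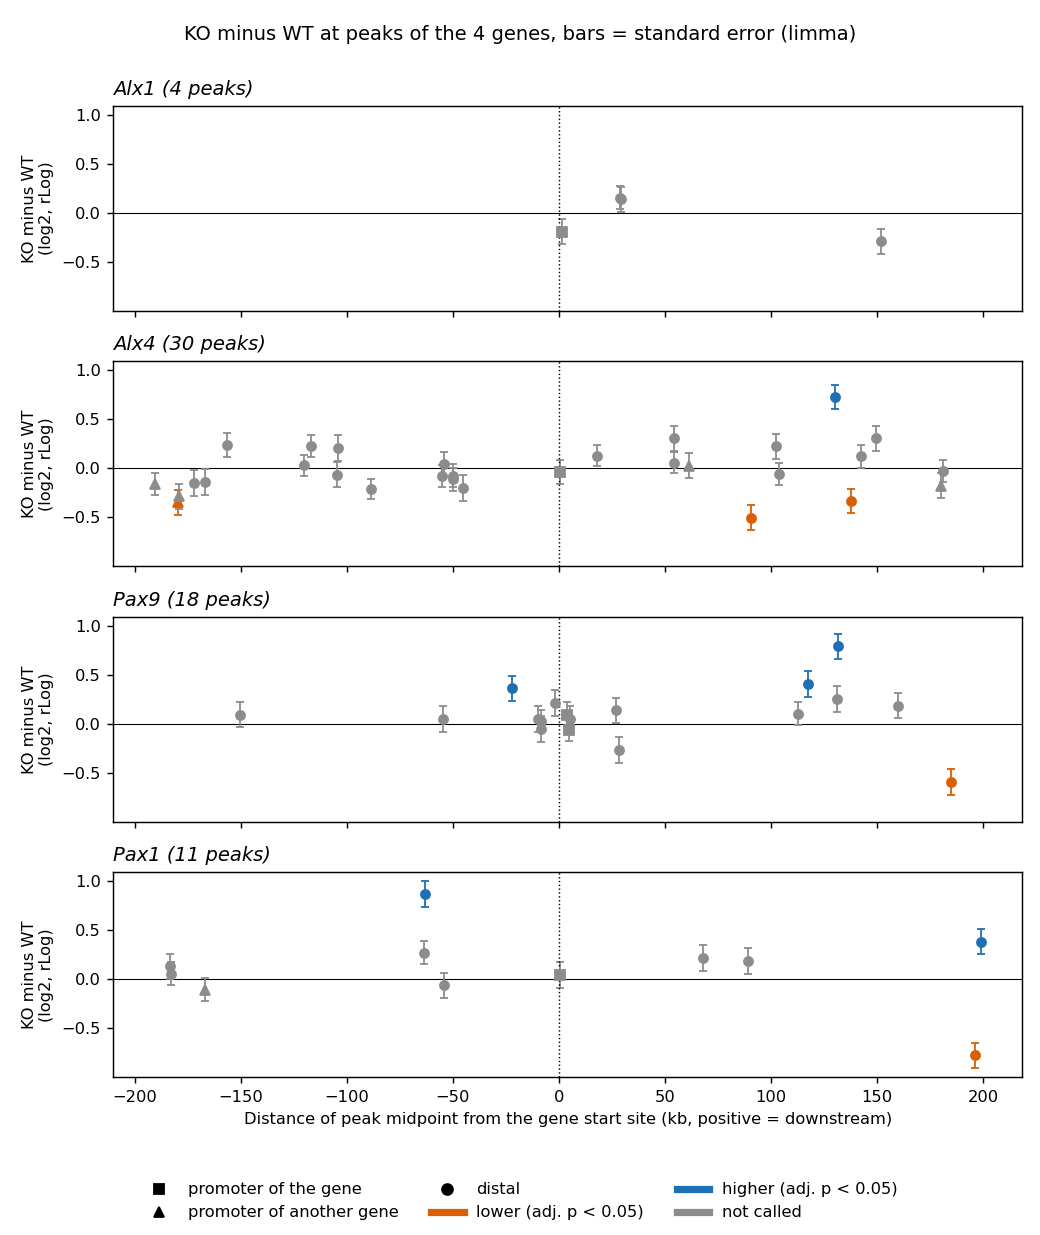
Difference in rLog (*Hox13-/-* minus WT, log2 scale, vertical axis) of each of the 63 peaks against the distance of its midpoint from the start site of its gene (kb, horizontal axis), with 1 panel for each gene. Bars are limma standard errors, the colours mark lower, higher and not called peaks, and squares, triangles and circles mark promoter peaks of the gene, promoter peaks of another gene and distal peaks. The squares lie between −0.19 and 0.09, and the largest differences, 0.87 and −0.78, lie at −63.2 and +196.3 kb of *Pax1*.

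No peak at the start sites of the 4 genes passed the test. A promoter peak was 1 that reached within 1 kb of any annotated transcript start of the gene, and the 4 genes had 5 such peaks. Of all promoter peaks 8.54% were lower and 1.61% higher. The 5 had a median difference of −0.04, against −0.11 for all promoter peaks of the table.

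The most accessible of them was *Pax9* +3.9 kb (chr12:56695411-56695959, in an exon of *Pax9*, at a downstream transcript start). It measured 6.42 and 6.20 in WT and 6.40 and 6.40 in *Hox13-/-*. The difference was 0.09, with a 95% interval from −0.16 to 0.34 (adjusted p = 0.65 by limma), and the libraries overlapped. The second *Pax9* promoter peak, +4.8 kb (chr12:56696549-56696650), was among the faintest of the 63, at 2.97 and 2.72 in WT and 2.75 and 2.82 in *Hox13-/-*, with a difference of −0.06 and an interval from −0.28 to 0.15.

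The promoter peak of *Alx4* was faint. At +0.6 kb (chr2:93642893-93643028, in an exon of *Alx4*) it measured 3.47 and 3.44 in WT and 3.38 and 3.45 in *Hox13-/-*, a difference of −0.04 with an interval from −0.27 to 0.20. Of the 13367 genes with a promoter peak only 2.29% had a lower value at their highest one than *Alx4* had. *Pax1* stood above 7.37% and *Alx1* above 6.40% of them, while *Pax9* stood above 40.0%.

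*Pax1* +0.6 kb (chr2:147362447-147362651) lies in an intron of *Pax1* and in an exon of the overlapping gene *AI646519*. Its rLog values were 4.42 and 4.27 in WT and 4.42 and 4.36 in *Hox13-/-*, which overlap, and the interval of the difference ran from −0.21 to 0.30 around 0.05. *Alx1* +1.6 kb (chr10:103028494-103028710, in an exon of *Alx1*) measured 4.33 and 4.29 in WT against 4.05 and 4.19 in *Hox13-/-*. Here both mutant libraries lay below both WT libraries, as in 43.3% of all promoter peaks. The difference of −0.19 (SE 0.129) did not pass the test (adjusted p = 0.30 by limma), with an interval from −0.45 to 0.06.

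A further 6 of the 63 peaks were at promoters of other genes near the 4. The lower call among them was the *Cd82* promoter at −179.8 kb of *Alx4* (chr2:93462341-93462788), named after its values were seen. *Cd82* encodes a membrane protein of the tetraspanin family. The peak measured 6.71 and 6.77 in WT and 6.44 and 6.35 in *Hox13-/-*, a difference of −0.34 (adjusted p = 0.039 by limma). The call was lost when any 1 of the 4 libraries was left out, with differences from −0.39 to −0.30 and adjusted p up to 0.22.

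The remaining 52 peaks were distal, that is without overlap with the 1 kb flanks of any start of a protein-coding gene. Of these 4 were lower and 6 higher, a share of 7.69% and 11.54%, against 8.2% and 15.9% of all distal peaks. Both mutant libraries lay below both WT libraries at 11 of the 52 and above them at 22, and the genotypes overlapped at 19. Over all distal peaks 23.3% were below and 39% above in that sense. The median difference of the 52 was 0.08, next to 0.06 for all distal peaks. The 9 peaks inside the bodies of the 4 genes, the 5 promoter peaks among them, held no call, and of all peaks 19.7% were called. With so few peaks no difference from that share can be read, and none was tested.

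*Alx1* (ENSMUSG00000036602.14, chr10:102998707-103030215, minus strand) had 3 distal peaks and no call. The one with the largest difference, +151.9 kb (chr10:102878259-102878413), measured 4.39 and 4.19 in WT and 3.94 and 4.06 in *Hox13-/-*. Both mutant values lay below both WT values, and the difference of −0.29 (SE 0.128) missed the threshold (adjusted p = 0.094 by limma). This peak was in the peak lists of both WT libraries and of neither mutant library. The most accessible distal peak, in an intron of *Alx1* at +29.1 kb, had 5.33 and 5.34 in WT and 5.43 and 5.52 in *Hox13-/-*, with an interval of the difference from −0.12 to 0.39.

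*Alx4* (ENSMUSG00000040310.12, chr2:93642384-93681339, plus strand) had 24 distal peaks, of which 2 were lower and 1 higher. All 3 lay downstream of the gene, in introns of *Ext2*, which encodes a glycosyltransferase of heparan sulfate synthesis. The median difference of the 24 was 0.00.

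The peak at +130.4 kb (chr2:93772264-93773304, 1041 bp) was the most accessible of all 63. It measured 7.49 and 7.51 in WT and 8.28 and 8.18 in *Hox13-/-*. The mutant libraries lay well above the WT libraries, and the difference of 0.73 (SE 0.123) was a 1.66-fold higher value on the rLog scale (adjusted p = 1.7e-07 by limma).

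On either side of it stood the lower peaks. The peak at +90.5 kb (chr2:93732706-93733116) measured 6.27 and 6.34 in WT and 5.95 and 5.66 in *Hox13-/-*, a difference of −0.50 (SE 0.129, adjusted p = 0.0013 by limma). Its call was lost without the second mutant library, when the difference was −0.36 (adjusted p = 0.13). The faint peak at +137.6 kb (chr2:93779931-93780096) fell from 3.70 and 3.86 to 3.57 and 3.32, a difference of −0.33 (adjusted p = 0.037 by limma), and was listed in both WT libraries and in neither mutant library. This call was lost without the second WT or the second mutant library, at differences of −0.26 and −0.21 and an adjusted p of up to 0.39, and the difference ran to −0.46 when another library was left out. The 2 changed peaks at +130.4 and +137.6 kb, of opposite direction, are 7.23 kb apart.

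*Pax9* (ENSMUSG00000001497.18, chr12:56691767-56712822, plus strand) had 16 distal peaks, 1 lower and 3 higher, and a median difference of 0.10. Of the 16, 13 had a difference above 0, as had 59.7% of all distal peaks.

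The largest of these was at +131.7 kb (chr12:56823245-56823684), in an intron of *Slc25a21*, which encodes a mitochondrial carrier. It measured 5.22 and 5.49 in WT and 6.19 and 6.11 in *Hox13-/-*, without overlap, a difference of 0.79 (SE 0.130) or 1.73-fold (adjusted p = 6.7e-08 by limma). It was listed in both mutant libraries and in neither WT library.

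The same held for the peak lists at +117.3 kb (chr12:56808957-56809223), in the same gene and 14.4 kb away. There the values were 4.48 and 4.79 in WT and 5.11 and 4.98 in *Hox13-/-*, and the difference was 0.41 (adjusted p = 0.014 by limma). Without the first WT or the first mutant library this call was lost, at differences of 0.26 and 0.34 and an adjusted p of up to 0.32, and the difference ran up to 0.56 when another library was left out.

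Further along *Slc25a21*, at +185.1 kb (chr12:56876629-56877045), the direction turned. The values fell from 5.89 and 5.98 in WT to 5.22 and 5.46 in *Hox13-/-*, a difference of −0.59 (SE 0.130, adjusted p = 1.0e-04 by limma). It was the peak nearest to the downstream limit of 200 kb. The next peak beyond that limit, at +206.6 kb, was called higher, with a difference of 0.48 (adjusted p = 0.0024 by limma). It is not counted here.

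Upstream of *Pax9* the intergenic peak at −21.9 kb (chr12:56669554-56670101) measured 6.38 and 5.99 in WT and 6.58 and 6.51 in *Hox13-/-*, a difference of 0.36 (adjusted p = 0.030 by limma). The call was lost without the second WT library or without either mutant library, and the difference was between 0.17 and 0.55 when 1 library was left out. The most accessible distal peak of *Pax9*, at +27.0 kb in *Slc25a21*, was not called. One of its mutant values, 6.83, lay above the WT values of 6.53 and 6.36, and the other, 6.33, below them.

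*Pax1* (ENSMUSG00000037034.16, chr2:147361925-147393295, plus strand) had 9 distal peaks, 1 lower and 2 higher, and a median difference of 0.19. The change at −63.2 kb (chr2:147298505-147298905) was the largest of the 63. It lies in an intron of *Nkx2-2os*, the antisense transcript of the neural homeobox gene *Nkx2-2*. The peak rose from 4.80 and 4.76 in WT to 5.65 and 5.65 in *Hox13-/-*, a difference of 0.87 (SE 0.131) or 1.82-fold (adjusted p = 3.0e-09 by limma). It was in the peak lists of both mutant libraries and of no WT library.

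At the far end of the *Pax1* window a pair of intergenic peaks, 2.85 kb apart, moved in opposite directions. The peak at +196.3 kb (chr2:147558052-147558343) measured 4.36 and 4.52 in WT and 3.64 and 3.68 in *Hox13-/-*, a difference of −0.78 (SE 0.128, adjusted p = 7.2e-08 by limma). The peak at +199.1 kb (chr2:147560525-147561573, 1049 bp) measured 6.96 and 6.77 in WT and 7.29 and 7.20 in *Hox13-/-*, a difference of 0.38 (adjusted p = 0.018 by limma). The change at +196.3 kb was the same in call without any 1 library, from −0.86 to −0.70. The change at +199.1 kb lost its call without the second WT library or without either mutant library, at an adjusted p of up to 0.19. It is also the last peak inside the limit of 200 kb, and the next one beyond, at +328.0 kb, had a difference of 0.11.

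**Figure D2:**
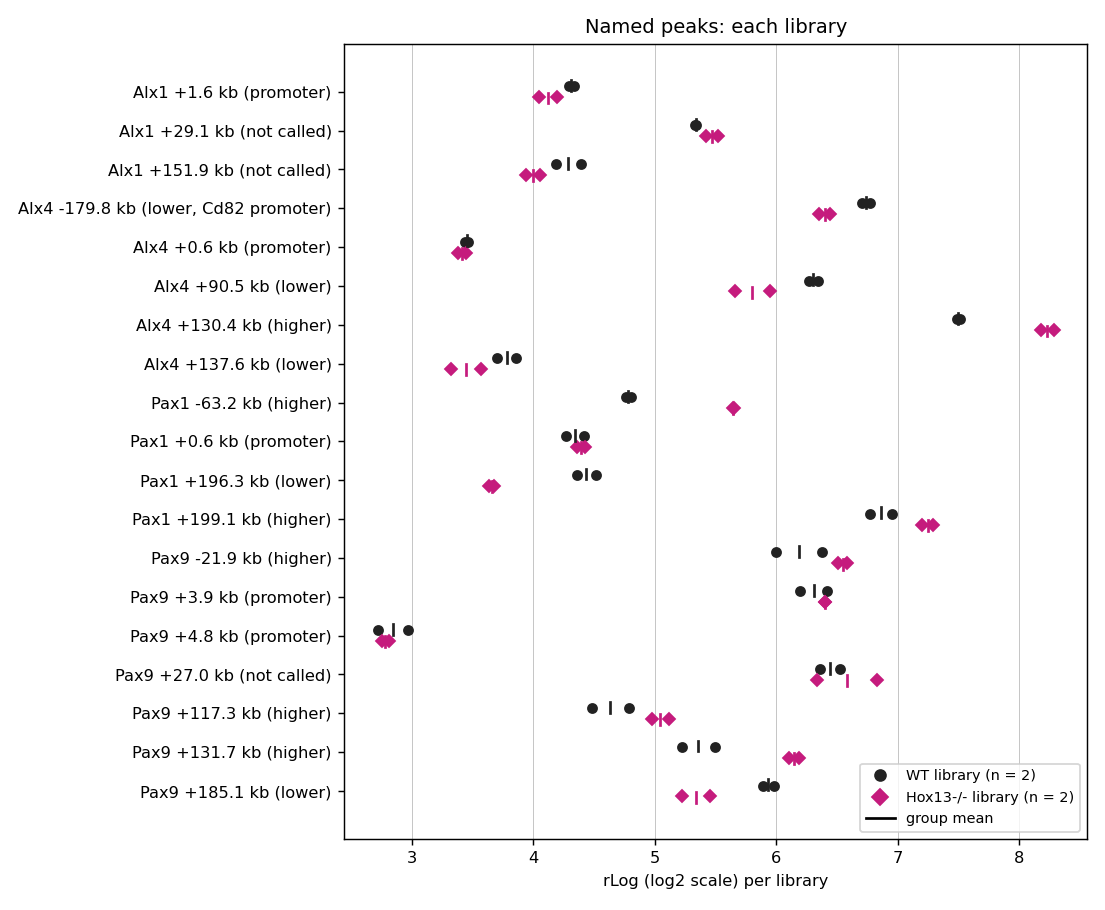
The rLog value (log2 scale, horizontal axis) of every library at the 19 peaks named here, with WT libraries as circles and *Hox13-/-* libraries as diamonds, 2 of each, and a short line at each group mean. The genotypes are widely separated at *Alx4* +130.4 kb, *Pax1* −63.2 kb, *Pax1* +196.3 kb, *Pax9* +131.7 kb and *Pax9* +185.1 kb, and lie close together at the promoter peaks.

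Most of the called peaks were among the more accessible and longer ones. *Alx4* +137.6 kb was neither (166 bp, mean rLog 3.61), and *Pax1* +196.3 kb had a mean rLog of only 4.05. The 6 higher peaks had a median length of 494 bp, the 5 lower ones 411 bp and the 52 others 184.5 bp. With all peaks of the table in 4 classes of equal size by mean rLog, the classes from low to high held 23, 18, 13 and 9 of the 63 peaks. Of these 1, 1, 4 and 5 were called, and the called shares of all peaks in those classes were 8.72%, 17.1%, 27.8% and 25.0%. The 63 peaks were less accessible than the table as a whole, with a median rLog of 4.15 against 4.73, and more of them stood in the class with the fewest calls. GC content over the 300 bases around the midpoint had the same median, 51.3%, in the 63 and in all peaks.

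**Figure D3:**
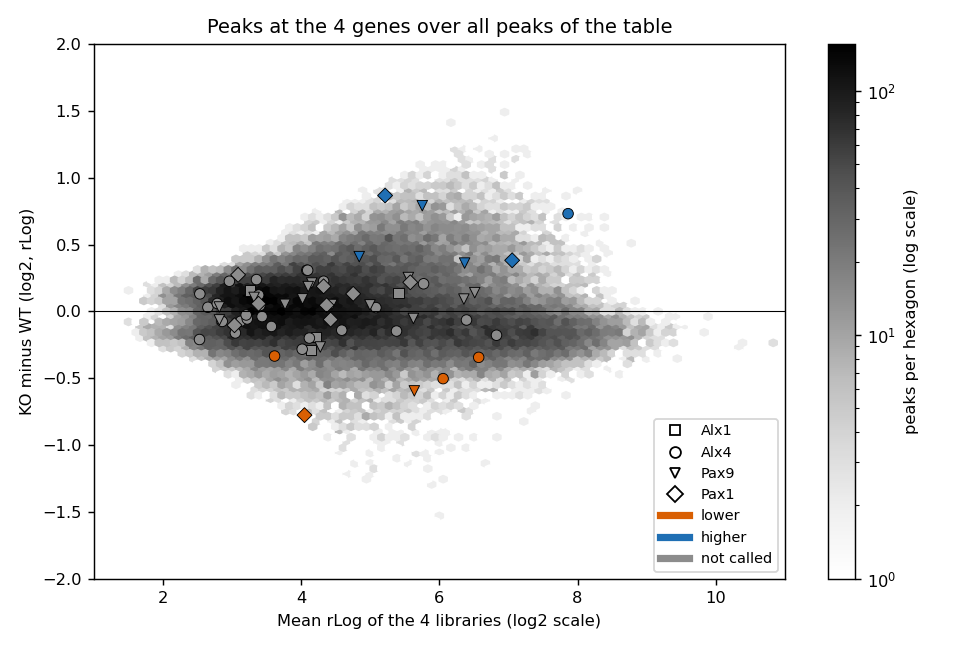
Difference in rLog (*Hox13-/-* minus WT, vertical axis) against mean rLog of the 4 libraries (horizontal axis), both on the log2 scale, for the 63 peaks of the 4 genes over the density of all peaks of the table, of which 88 lie outside the axes. Most of the 63 stand at the low end of the range, below the median of 4.73, and 9 of the 11 called peaks stand above it.

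The peak lists of the single libraries differed in the called direction at 5 of the 11 called peaks, gave equal numbers of lists in both genotypes at the other 6, and went against the call at none. Only 13 of the 63 peaks were in the lists of all 4 libraries, and 29 were in 1 list alone. All 6 higher peaks were listed in both mutant libraries, and 3 of them in no WT library. Of the 5 lower peaks 3 were listed in both WT libraries, and 2 were in no mutant list. The lists rest on the same reads as the rLog values and are no separate measurement.

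HOX13 motif matches were about as frequent among the 63 peaks as in the table as a whole. The letters were found in the 300 bases around 8 of the 63 peaks (12.7%), against 13.1% of all peaks. All 8 were distal, as were 52 of the 63, and of all distal peaks 17.2% had a match. Of the 5 lower peaks 2 had a match, both at *Alx4*: +90.5 kb holds 1 and +137.6 kb holds 2, in capitals above. None of the 6 higher peaks had one, and 6 of the 52 others did. In the table as a whole the share was 22.04% of lower, 17.4% of higher and 11.52% of uncalled peaks. The uncalled peak at −8.7 kb of *Pax9* had 3 matches. TAATTA stood near 5 of the 63 (7.94%) against 10.6% of all peaks, and its 1 match in a called peak is that at *Pax9* +185.1 kb, a lower peak. In the table as a whole TAATTA was near 8.39% of lower and 22.7% of higher peaks. None of the 6 higher peaks here had it, a number too small to compare with that share. The 300 bases also do not cover the whole of a long peak such as *Alx4* +130.4 kb (1041 bp). The GLI letters, which occur near 0.368% of all peaks, were not found near any of the 63. A match is a run of letters and not a measured binding site.

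The same windows around other genes of the limb axis gave the following counts. *Gli3*, which encodes the repressor of hedgehog targets in the anterior bud, had 36 peaks, with 3 lower and 7 higher. *Irx3* and *Irx5*, homeobox genes of the early anterior and proximal bud, had 15 peaks with 2 lower and 4 higher, and 23 peaks with 2 lower and 3 higher. Together these 74 peaks had 9.46% lower and 18.9% higher, against 8.31% and 11.4% of all peaks, with a median difference of 0.12. Most of the 74 were distal. Of all distal peaks 8.2% were lower and 15.9% higher, with a median difference of 0.06.

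Posterior genes had 228 peaks, each counted once, of which 8.77% were lower and 14.5% higher, with a median difference of 0.00. *Hand2*, a bHLH factor of the posterior bud, had 4 lower and 5 higher of 30. *Shh*, the ligand of the posterior organizer, had 3 peaks with 1 higher, and its receptor and target *Ptch1* had 35 with 1 lower and 4 higher. *Gli1*, a transcriptional target of hedgehog signalling, had 34 with 2 lower and none higher. These 2 calls were at promoters of other genes, and of all promoter peaks 8.54% were lower and 1.61% higher. The T-box genes *Tbx2* and *Tbx3* had 4 lower and 7 higher of 41, and 3 lower and 7 higher of 36. *Hoxd11* and *Hoxd12* share 49 peaks, 6 lower and 9 higher. The only called promoter peak of the comparison genes was 1 of *Hoxd11*, higher by 0.39 (adjusted p = 0.019 by limma). Differences between these lists and the 4 genes were not tested.

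**Figure D4:**
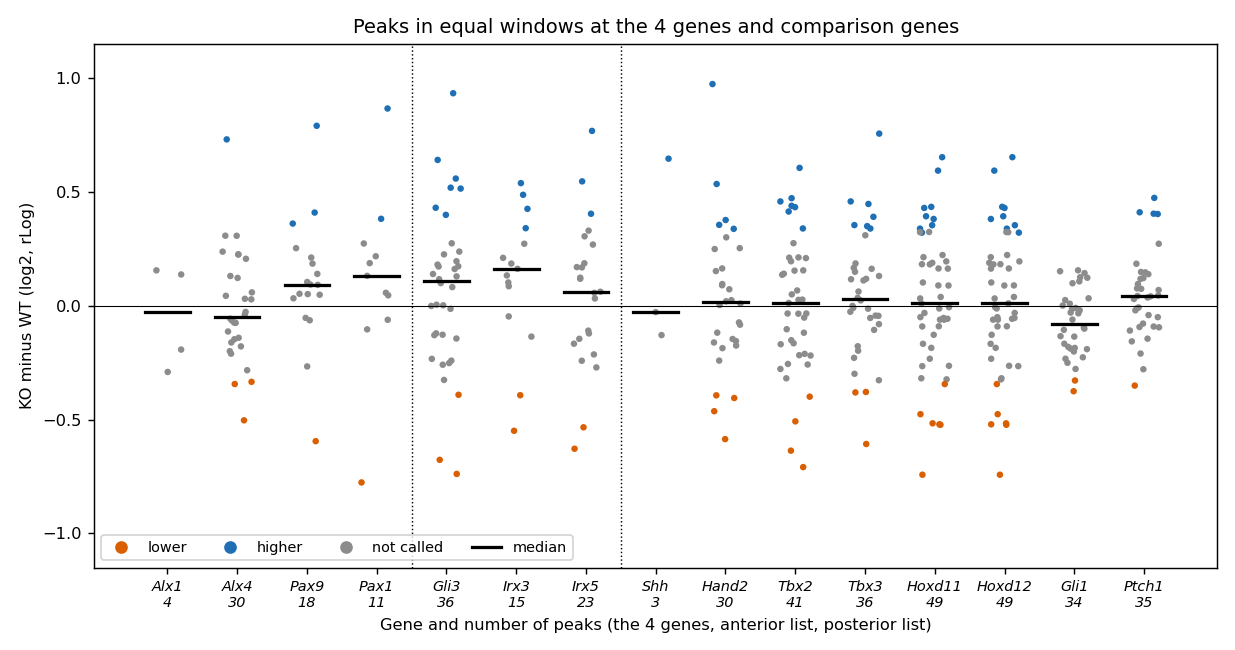
Difference in rLog (*Hox13-/-* minus WT, log2 scale) of every peak within 200 kb of, or inside, the 4 genes, the anterior comparison genes and the posterior comparison genes, with 1 point for each peak, a black line at each gene's median and colours for lower, higher and not called. Lower and higher peaks occur side by side at most genes, and *Alx1* has no called peak.

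The genes whose highest promoter peak had the most similar values in the 4 libraries, by the root mean square difference of rLog, were *Pde1b* (0.034), *Nrp1* (0.038) and *Slc41a2* (0.043) for *Pax9*. For *Alx4* they were *Nodal* (0.046), *Tmem171* (0.052) and *Pdzd9* (0.055). *Alx1* was nearest to *Vps25* (0.026), *Hoxd13* (0.039) and *Gprin1* (0.045), and *Pax1* to *Ikzf4* (0.023), *Nwd2* (0.026) and *Tbc1d1* (0.043). Likeness over 4 values is a description of level only.

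Across all peaks the libraries correlated at 0.993 within a genotype and at 0.979 to 0.980 between genotypes. The peak nearest the start of *Hoxd13* was lower in *Hox13-/-* by limma, with a difference of −0.52 (adjusted p = 6.1e-04). The highest promoter peak of *Hoxd13* was not called, at −0.26. The peak nearest the start of *Hoxa13* was not called either, at −0.08 (adjusted p = 0.71 by limma). Accessibility does not check the alleles. All 5 mesenchymal marker genes had a promoter peak, of 3.81 to 7.42 in WT and 3.92 to 7.68 in *Hox13-/-*, and *Twist1* was lower among them by 0.40. Of the markers of other cell types 2 of 5 for ectoderm, 1 of 4 for muscle (*Myod1*), 1 of 4 for endothelium (*Kdr*), 0 of 4 for blood and 0 of 2 for neural crest had one, and none of those peaks was called.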

How the data were processed

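Per the labels and the study's methods, the authors aligned reads to mm10 with bowtie2 2.3.1, called peaks in each library with MACS2 2.1.1.20160309, merged them and counted reads with HOMER 4.9.1. The deposited rLog values, on a log2 scale, come from DESeq2 (version not given in the sources used here), which divides by size factors and shrinks each library's value towards the mean of its peak. The table also holds the authors' log2 fold change, p-value and adjusted p-value for each peak, which were not used, and their annotation column. Read counts were not used here, so depth per peak is unknown and counting intervals cannot be given. Shrinkage makes differences of faint peaks smaller.

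All 61954 peaks were fitted with limma 3.58.1 in R 4.3.3 (genotype term, variance trend, two-sided, Benjamini-Hochberg adjustment). The procedure was tested on simulated data. An exact permutation of 2 against 2 libraries cannot give a p below 0.33, and limma instead borrows the spread of other peaks. Its standard errors, intervals and p-values followed a peak's mean rLog and not its own replicates. At *Pax9* −10.0 kb the standard deviations were 0.373 in WT and 0.311 in *Hox13-/-*, and the SE was 0.130. At *Pax1* −63.2 kb they were 0.029 and 0.001, and the SE was 0.131. Peaks were assigned to genes by GENCODE M21 starts with pandas 2.3.3 in Python 3.11.15, using GRCm38 sequence (RefSeq) read with pysam 0.24.0, and plotted with matplotlib 3.10.9. Named peaks were all promoter peaks of the 4 genes, for each gene up to 3 called distal peaks per direction, ranked by p, the most accessible distal peak of each gene, and, for a gene with no call, its largest difference. The genes and lists were chosen with earlier results of these data known, and part of the anterior list is not reported here. Alternatives were other scalings, no variance trend, filters on low peaks, stricter thresholds, other windows, a replicate block and leaving out each library.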

Additional observations from a re-analysis of the deposited data

How the results depend on the processing

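The counts of 5 lower and 6 higher peaks kept within 1.5 times under the 3 other scalings (4 or 5 lower, 5 or 6 higher), without the variance trend, with any annotated transcript start and among the 75% most accessible peaks. Among the 50% most accessible peaks 3 were lower. At an adjusted p under 0.01 there were 3 lower and 3 higher, and beyond a difference of 1 there were 0 of either. A window of 100 kb held 1 lower and 2 higher peaks, and 1 of 500 kb held 10 lower and 11 higher. When 1 library was left out, lower peaks numbered 2 to 4 and higher peaks 3 to 5, lowest without the second mutant library (2 lower) and without the first (3 higher). Among all peaks, centring each library on its median gave 6811 lower and 6017 higher (46.9% higher) in place of 5146 and 7040 (57.8% higher). Replicate numbers did not pair the libraries (correlation of same-numbered deviations −0.011 across peaks), and with the replicate block 5 were lower and 6 higher, all 11 shared with the fit without it. Of the 11 called peaks named here, 5 kept their call under each scaling, filter, block and left-out library run that included them. They were *Alx4* +130.4, *Pax1* −63.2, *Pax1* +196.3, *Pax9* +131.7 and *Pax9* +185.1 kb. The filter to the 50% most accessible peaks removed *Pax1* +196.3 kb, which was therefore not tested there. In 118 alternative values of the 11 peaks, 18 lost the call and 0 changed sign. *Pax9* −21.9 kb and *Cd82* also lost theirs under other scalings. The differences that changed sign belonged to uncalled peaks: *Pax1* +0.6 kb (from −0.030, without the second WT library, to 0.12), *Pax9* +3.9 kb (from −0.018, without the second WT library, to 0.20), *Pax9* +4.8 kb (from −0.19 to 0.060, without the first WT library) and *Pax9* +27.0 kb (from −0.11, without the first mutant library, to 0.39). The cause was not tested.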
